A study of Mus musculus with 2 samples.

Results

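Potassium channel genes were compared between an ovary RNA sample from progesterone receptor (PR) knockout mice and one from wild-type mice. Members were the genes whose probe sets on the array carry a single symbol made of Kcn, further letters and a number. The rule found 84 genes of the 18193 with a single-symbol probe set, read by 167 probe sets. Members were chosen by symbol, and where a gene had several probe sets, the one used was selected on its measured signal, as the highest in mean log2 signal over both arrays. Of the 84, 81 are protein-coding and 3 are non-coding RNAs in RefSeq. The name potassium channel holds for the pore-forming subunits only. Of the members, 15 are auxiliary subunits, and the 3 non-coding RNAs carry the name of another member, Kcnq1 or Kcnmb4. Some genes classed by symbol as voltage-gated, such as Kcng2 and Kcns2, encode modifier subunits. RefSeq lists 13 further symbols of this form that are not analysed here.

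The PR knockout mice lack the receptor, a transcription factor that progesterone switches on, and the wild-type mice carry it. Both groups were C57BL/6 mice aged 24 to 28 days and had the same hormone treatment. They received 5 IU of pregnant mare serum gonadotropin, which makes follicles grow, and 48 h later 5 IU of human chorionic gonadotropin, which triggers ovulation, and ovaries were taken after another 11 h. The labels give neither the disrupted part of the receptor gene nor the number of mice behind each sample, and there was 1 array per genotype. No test was therefore possible, every value is a single measurement, and animal, RNA preparation and array cannot be told apart from genotype.

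Signals are MAS5 intensities, in arbitrary units, and signals of different probe sets were not set against each other as RNA levels. Summed signals, given only for lists of cell type markers, do add different probe sets. The floor for a measurable signal was each array's median over probe sets other than controls, 37.95 on the PR knockout array and 36.2 on the wild-type array. Signals under the floor were set to it, so a fold against such a signal is a lower bound. Between probe sets of 1 gene, the log2 difference varied with an SD of 0.25 over 4771 genes, and of 0.25 over the 9 members with more than 1 probe set above the floor on both arrays. Pgr, the targeted gene, gave 42.8, 21.1 and 3.64 on the PR knockout array in its 3 probe sets and 36.5, 1.03 and 2.97 on the wild-type array, all close to or under the floor, so the genotype could not be checked from it.

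Potassium channels let potassium leave or enter the cell and so set the membrane potential. Voltage-gated channels open on depolarization, calcium- and sodium-activated channels follow those ions inside the cell, inward rectifiers pass current best near or below rest, and two-pore-domain channels carry a steady leak. Auxiliary subunits change how the pores open or where they go. In the ovary such channels work in granulosa and luteal cells, in the oocyte and in the smooth muscle and pericytes of its vessels.

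Most members gave little signal in either ovary. Of the 84 genes, 28 (33.3%) reached the floor on at least 1 array, against 62.2% of all genes, and 24 reached it on both. Measured members numbered 10 of 31 among voltage-gated genes and 3 of 8 among calcium- or sodium-activated genes. Measured members were 3 of 15 among inward rectifiers and 5 of 12 among two-pore-domain genes. They numbered 6 of 15 among auxiliary subunits and 1 of 3 among non-coding RNAs. In the other 56 genes, signals ran from 0.41 to 35.8 over both arrays, and none of their remaining probe sets reached the floor. Just inside the floor lay Kcng2, a modifier subunit gene, with 18.9 in the PR knockout and 38.5 in the wild type, and Kcnd1, an A-type pore gene, with 31.3 in the PR knockout and 40.6 in the wild type. Just outside lay the large-conductance channel subunit genes Kcnmb1, with 26.3 in the PR knockout and 35.3 in the wild type, and Kcnmb2, with 35.8 in the PR knockout and 15.7 in the wild type.

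**Figure D1:**
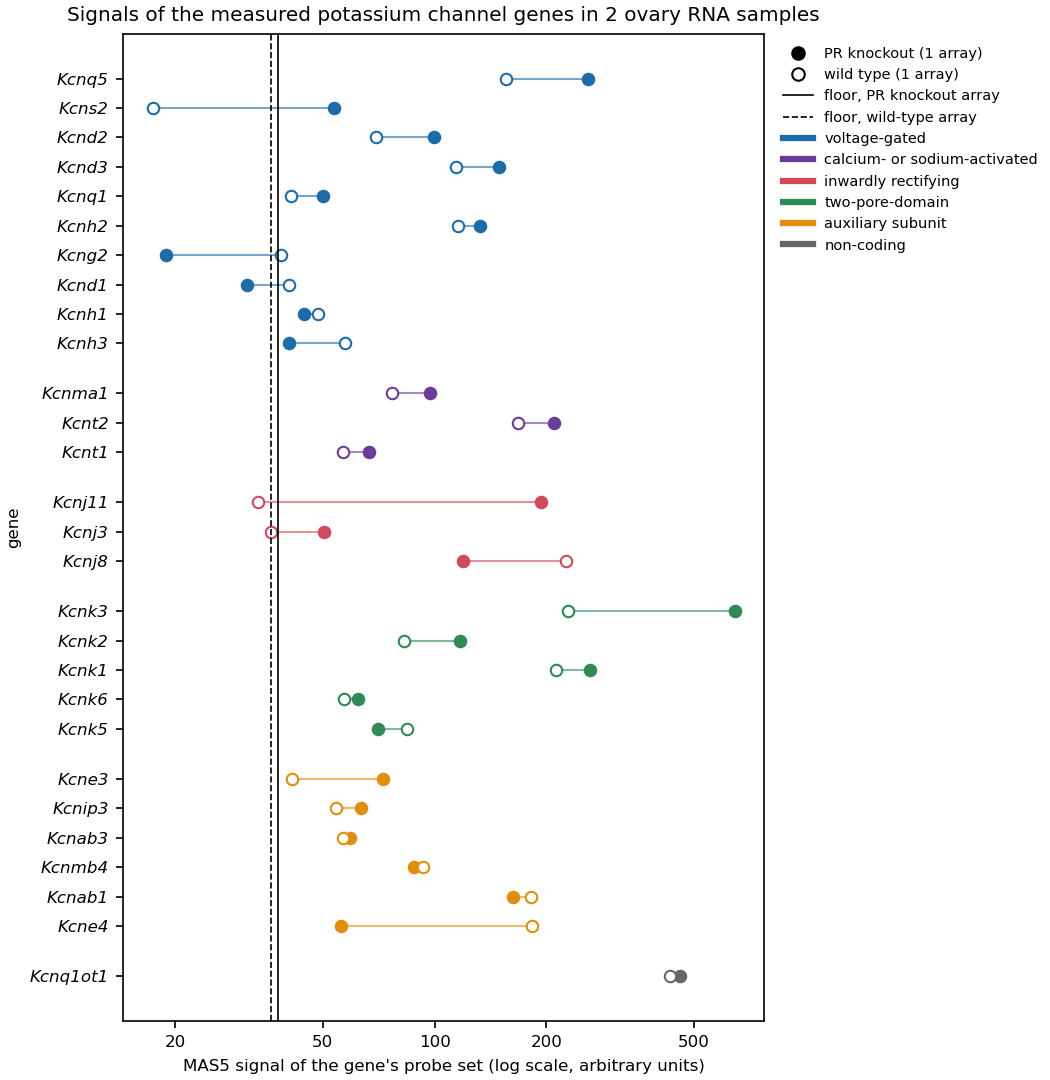
Signals of the 28 measured potassium channel genes by class, with filled points for the PR knockout array, open points for the wild-type array and lines for the floors; the x axis is the MAS5 signal on a log scale in arbitrary units. The filled points of Kcnk3 (643) and Kcnj11 (193.6) lie to the right of their open points and that of Kcne4 (55.9) to the left, each by over 2-fold, while 22 of the 28 genes differ by less than 1.5-fold after flooring.

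The differences lay in a few genes. In the PR knockout ovary 4 of the 28 measured members, Kcnj11, Kcnk3, Kcne3 and Kcnq5, were at least 1.5-fold higher (14.3%), a size that 6.54% of all 11316 measured genes reached. At least 1.5-fold lower were 2 members, Kcne4 and Kcnj8 (7.14%, against 4.75% of all measured genes). At 2-fold, 2 members were higher (7.14%, against 1.15%) and 1 was lower (3.57%, against 1.72%). Among the 9021 measured genes no brighter than the brightest member, the shares were 7.6% higher and 4.27% lower at 1.5-fold, and 1.34% higher and 1.33% lower at 2-fold. After removal of the loess trend the members' 2-fold split was 2 higher and 2 lower. Members that reach the floor only through the array where they are high must differ, so these counts describe the 2 arrays and support nothing further.

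After flooring, the other 22 measured members ran from -0.51 to 0.56 on the log2 scale (PR knockout minus wild type). Among them Kcns2, at 0.56, Kcng2 and Kcnd1 were under the floor on 1 array, so their values are bounds. With no floor Kcns2 came to 1.62 and Kcng2 to -1.02. Over the 28 the median log2 difference was 0.23, with quartiles of -0.08 and 0.48, and 19 were above 0. Over all measured genes it was 0.06, with quartiles of -0.14 and 0.27, and 57.7% were above 0.

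**Figure D2:**
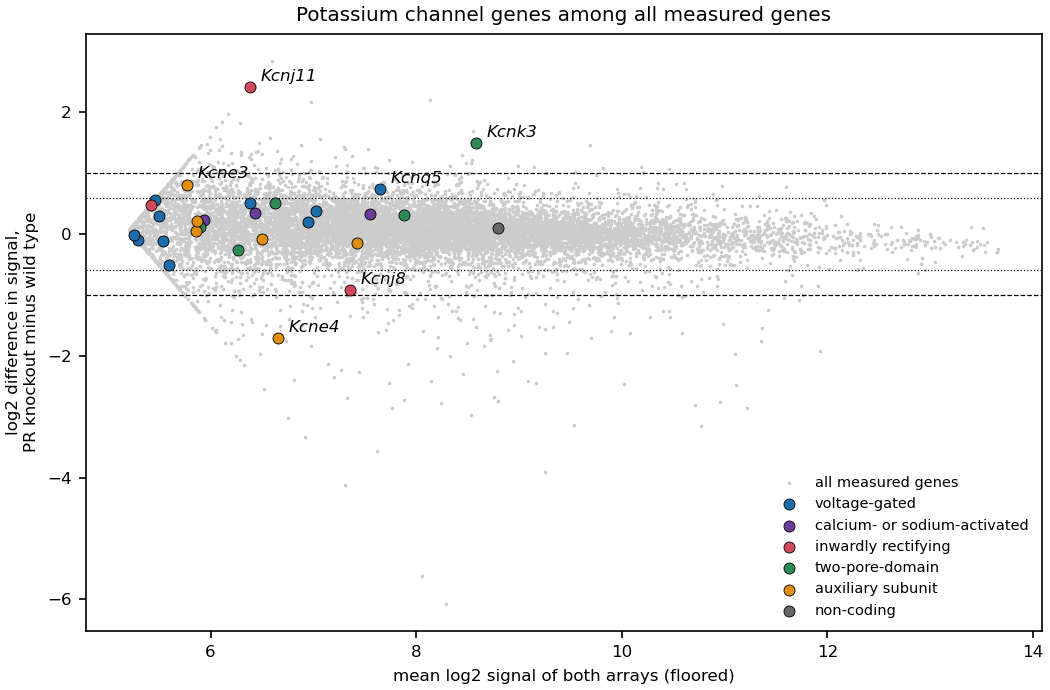
Log2 difference (PR knockout minus wild type, y axis) against mean log2 signal of both arrays after flooring (x axis), with all 11316 measured genes in grey and the 28 measured members in colour by class; dotted lines mark 1.5-fold and dashed lines 2-fold. Kcnj11 and Kcnk3 stand at 2.42 and 1.49, and Kcne4 at -1.71, while 22 of the 28 members lie between the dotted lines.

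Among the two-pore-domain genes, Kcnk3 was higher in the PR knockout. Kcnk3 encodes TASK-1, an acid-sensitive leak channel. Its probe set 1425341_at gave 643 in the PR knockout and 228.9 in the wild type, 2.81-fold higher. The gene has another pair of probe sets. Both reached the floor only through the PR knockout array, so they could only point the same way. Probe set 1425342_a_at gave 74.2 in the PR knockout and 28.5 in the wild type, and 1426058_a_at gave 71.7 in the PR knockout and 5.70 in the wild type, both under the floor in the wild type, so that the log2 differences of 1.03 and 0.98 are lower bounds. The direction of these bounds therefore adds no support to the difference in 1425341_at. Of the other called members, only Kcnq5 had a further measured probe set.

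The other 4 measured two-pore-domain genes were closer together. Kcnk2, which encodes the stretch- and lipid-sensitive channel TREK-1, gave 117 in the PR knockout and 82.9 in the wild type, 1.42-fold higher. Kcnk1, which encodes the weakly conducting channel TWIK-1, gave 262.5 in the PR knockout and 212.6 in the wild type, with log2 differences of 0.30 and 0.41 in its 2 measured probe sets. The related Kcnk6 gave 62.0 in the PR knockout and 57.1 in the wild type. Kcnk5, which encodes the alkali-activated channel TASK-2, was the one member of the class with lower signal, at 70.3 in the PR knockout and 84.2 in the wild type, 1.20-fold lower.

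The inward rectifiers held 2 genes with opposite differences, both of them pore subunits of ATP-sensitive potassium channels, which close when cell ATP is high. Kcnj11, known from the insulin-secreting beta cell, gave 193.6 in the PR knockout and 33.5 in the wild type, which is under the floor. It was thus at least 5.34-fold higher, and counted as measured only through the PR knockout array. This rests on probe set 1455417_at alone, since the gene's other probe set, 1450515_at, gave 11.0 in the PR knockout and 13.8 in the wild type and did not reach the floor on either array. Kcnj8, the pore subunit of vascular smooth muscle and pericytes, gave 119 in the PR knockout and 225.7 in the wild type with its single probe set 1418142_at, 1.89-fold lower.

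These pores work with a sulfonylurea receptor, and in RefSeq each of the pore genes neighbours one, with 0 protein-coding genes between. Abcc8, beside Kcnj11, did not reach the floor on either array: its probe sets gave 17.8 and 0.28 in the PR knockout and 1.79 and 1.22 in the wild type. Abcc9, beside Kcnj8, gave 688 in the PR knockout and 640 in the wild type, with log2 differences from 0.02 to 0.27 in its 3 probe sets. Abcc9 was thus within 1.5-fold, and Abcc8 was not measured. The third measured inward rectifier, Kcnj3, a G-protein-gated channel subunit, gave 50.3 in the PR knockout and 36.3 in the wild type, at the floor there. Its probe sets differed in sign, at 0.47 and -0.08 on the log2 scale, the latter a bound since that probe set lay under the floor in the PR knockout.

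Among auxiliary subunits, 2 genes of the same single-span family differed in opposite directions. Kcne4, whose product inhibits several voltage-gated channels, gave 55.9 in the PR knockout and 182.9 in the wild type with probe set 1418156_at, 3.27-fold lower. Kcne3, whose product keeps the Kcnq1 channel open, gave 72.5 in the PR knockout and 41.4 in the wild type with probe set 1418499_a_at, 1.75-fold higher, with a wild-type signal near the floor. Each was read by 1 probe set. Kcnq1 itself, a pore that both can bind, was 1.22-fold higher in the PR knockout than in the wild type, where it gave 40.9.

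By the probe sets used, the remaining auxiliary genes were less than 1.5-fold apart. Kcnab1 and Kcnab3 encode cytoplasmic beta subunits of Kcna channels. Kcnab1 gave 163 in the PR knockout and 181 in the wild type, with -0.15 and -0.65 on the log2 scale in its 2 measured probe sets, and Kcnab3 gave 59.0 in the PR knockout and 56.8 in the wild type. Kcnip3, a calcium-binding partner of Kcnd channels that also acts as a transcriptional repressor, gave 63.2 in the PR knockout and 54.3 in the wild type, and its other probe set gave -0.09 on the log2 scale. Kcnmb4, a beta subunit of the large-conductance channel, gave 88.2 in the PR knockout and 93.0 in the wild type.

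Promoter sequence is shown for Kcne4 and Kcnj8, the members at least 1.5-fold lower in the PR knockout. Kcnk3 and Kcnj11 have no entry in the table used. The sequences are the 250 bases before the annotated start, from RefSeq (GRCm38.p6), at chr1:78816661-78816910 on the plus strand for Kcne4 and chr6:142571615-142571864 on the minus strand for Kcnj8. They were searched on both strands for TGACG, the core of the cAMP response element, and for TGTTCT, a half-site bound by the progesterone and glucocorticoid receptors. Capitals mark the matches found.
Kcne4: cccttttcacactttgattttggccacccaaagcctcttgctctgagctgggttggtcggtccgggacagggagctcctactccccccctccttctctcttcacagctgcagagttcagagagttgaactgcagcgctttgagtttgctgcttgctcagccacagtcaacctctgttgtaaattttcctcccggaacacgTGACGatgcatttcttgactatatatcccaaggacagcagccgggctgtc
Kcnj8: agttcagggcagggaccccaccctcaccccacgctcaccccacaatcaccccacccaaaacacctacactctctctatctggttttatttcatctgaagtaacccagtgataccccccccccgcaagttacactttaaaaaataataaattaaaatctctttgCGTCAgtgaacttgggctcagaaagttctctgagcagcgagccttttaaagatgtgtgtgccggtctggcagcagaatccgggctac
Each held 1 match to TGACG, which began 50 bases before the start in Kcne4 and, read on the other strand, 87 bases before it in Kcnj8. TGACG occurred in 17.8% of the 32851 promoter windows of this length and TGTTCT in 16.1%. Of the 27 windows of the 18 measured members with an entry, 4 held TGACG and 3 held TGTTCT. The 2 windows each of Kcne3 and Kcnq5, members that were higher, held 0 matches to either, and these are too few windows to set the directions against each other. A match is a string of letters and not a bound site.

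Of the voltage-gated genes, 1 of 10 measured was at least 1.5-fold higher and 0 were at least 1.5-fold lower. Over all measured genes the shares were 6.54% and 4.75%, so these counts lie near that background. Kcnq5, a subunit of the slow M-type current, gave 258.9 in the PR knockout and 155.3 in the wild type with probe set 1441071_at, 1.67-fold higher. Its other measured probe set, 1457587_at, gave 61.6 in the PR knockout and 60.8 in the wild type, a log2 difference of 0.02, so that the probe sets of Kcnq5 spread more than the within-gene SD.

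The Kcnd genes encode the pores of the fast-inactivating A-type current. Kcnd2 gave 99.6 in the PR knockout and 69.7 in the wild type, with log2 differences of 0.51 and 0.60 in its 2 measured probe sets, and Kcnd3 gave 149 in the PR knockout and 114 in the wild type, 1.30-fold higher. Kcns2, a modifier subunit silent on its own, gave 53.4 in the PR knockout and 17.4 in the wild type, at least 1.47-fold higher since the wild type lay under the floor.

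In the Kcnh family, Kcnh2, the gene of the ERG channel that repolarizes heart muscle, gave 132.8 in the PR knockout and 115 in the wild type. Kcnh1 gave 44.6 in the PR knockout and 48.4 in the wild type. Kcnh3 gave 40.5 in the PR knockout and 57.5 in the wild type, 1.42-fold lower, and a further probe set, itself under the floor in the PR knockout, stood at -0.17 on the log2 scale, a bound.

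The 3 measured calcium- or sodium-activated genes were all slightly higher in the PR knockout, none of them by 1.5-fold. Kcnma1, the pore of the large-conductance calcium-activated channel, gave 97.4 in the PR knockout and 76.9 in the wild type, and its 3 measured probe sets ran from 0.20 to 0.45 on the log2 scale. The sodium-activated channel gene Kcnt2 gave 210.0 in the PR knockout and 167 in the wild type, 1.26-fold higher. Its relative Kcnt1 gave 66.6 in the PR knockout and 56.7 in the wild type, and the log2 differences of its probe sets ran from -0.0033 to 0.23. The -0.0033 is a bound, from 29.6 in the PR knockout, under the floor, and 38.0 in the wild type. A further probe set, under the floor in the wild type, gave a bound of 0.12.

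Kcnq1ot1, a long non-coding RNA that lies within Kcnq1 and silences the imprinted genes around it, gave 458 in the PR knockout and 430 in the wild type. Its 4 measured probe sets ran from 0.04 to 0.58 on the log2 scale. Over the 13 members with more than 1 measured probe set, all probe sets shared a sign in 10 and differed in sign in 3. Bounds were counted by their floored sign. The floor largely sets that sign, and no share over all genes stands beside the count, so it is no check on the directions.

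**Figure D3:**
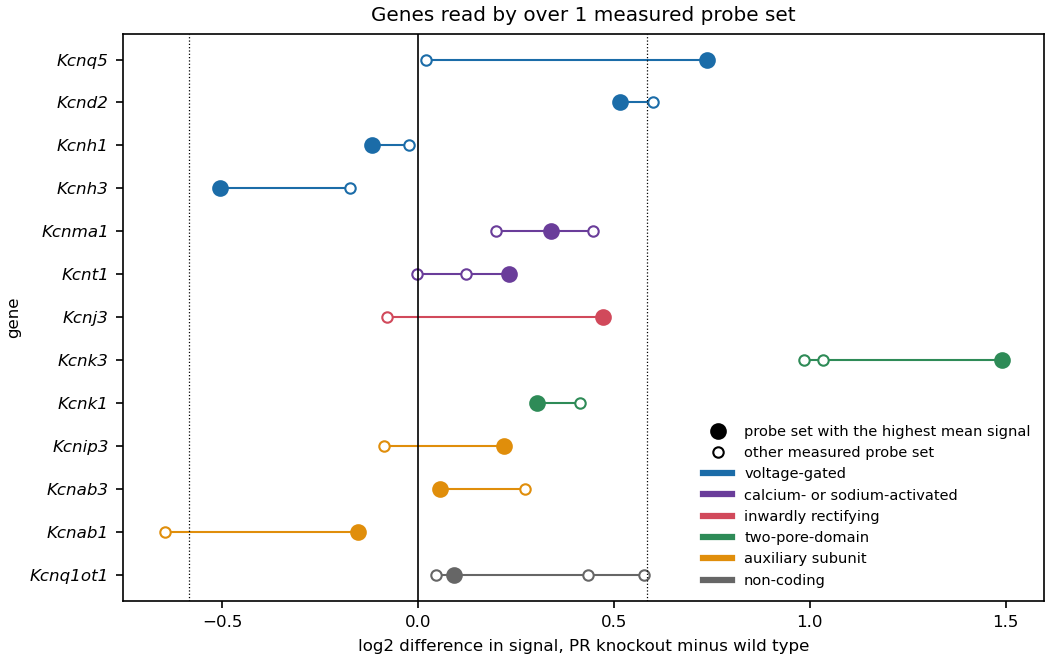
Log2 difference (PR knockout minus wild type, x axis) of each measured probe set for the 13 members read by more than 1, with large filled points for the probe set used and open points for the others; dotted lines mark 1.5-fold. All 3 points of Kcnk3 lie at 0.98 or above, while those of Kcnq5 lie at 0.74 and 0.02. The open points of Kcnk3 are lower bounds, from probe sets under the floor in the wild type.

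Markers of ovarian cell types were read on the same arrays, since a whole ovary mixes them. In such bulk samples, fewer cells of a type and less RNA per cell cannot be told apart. Summed signals add all genes of a list that have a probe set, without flooring, so the brightest genes weigh most. Beside the counts for all marker lists, 6.54% of all measured genes were at least 1.5-fold higher and 4.75% at least 1.5-fold lower. Of all measured genes, 57.7% lay above 0. Of 10 stroma and fibroblast markers, all measured, 8 lay above 0 and 2 below. At least 1.5-fold higher in the PR knockout were 3, namely Sfrp2 (3.24-fold), Tcf21 (2.76-fold) and Lum (1.79-fold). The summed signal of the 10 was 20322 in the PR knockout and 17638 in the wild type, of which Col3a1 gave 7498 and 7550. Of 11 granulosa markers 9 lay above 0 and 2 below. At least 1.5-fold higher were 5, led by Esr2 (1.91-fold), Inhbb (1.77-fold), Inhba (1.60-fold) and Hsd17b1 (1.54-fold). The summed signal of the 11 was 20492 in the PR knockout and 17938 in the wild type, of which Inha gave 8073 and 8399. The part of these stroma and granulosa markers in the higher signals of Kcnk3, Kcnj11, Kcne3 and Kcnq5 was not tested.

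Kcnj8 is known from smooth muscle and pericytes. Of 10 smooth muscle markers 0 were 1.5-fold apart, with a summed signal of 12162 in the PR knockout and 12471 in the wild type. Of 8 pericyte markers 6 were measured and 2, Mcam (1.54-fold) and Ndufa4l2 (1.61-fold), were at least 1.5-fold lower. The other 4 lay above 0 by the probe sets used (median of the 6, 0.21 on the log2 scale). Of these, Rgs5 had 4 measured probe sets that ran from -0.67 to 0.64. The summed signal of the 8 was 2628 in the PR knockout and 2371 in the wild type. Of 9 surface epithelium markers 7 lay below 0 and 2 above. At least 1.5-fold lower were 4, all of them keratin genes (Krt7 by 3.15-fold, Krt8 by 2.26-fold, Krt18 by 2.06-fold and Krt19 by 1.53-fold). The summed signal of the 9 was 950 in the PR knockout and 1531 in the wild type. The part of these pericyte and epithelial markers in the lower signals of Kcne4 and Kcnj8 was not tested. Of 11 endothelial markers 8 lay above 0 and 3 below. At least 1.5-fold higher were 2, Tie1 and Vwf, and Vwf was under the floor in the wild type. The summed signal of the 11 was 2548 in the PR knockout and 2152 in the wild type. Theca, leukocyte and oocyte markers had 1 of 7, 0 of 7 and 1 of 11 measured genes at least 1.5-fold higher, and 0, 1 and 0 at least 1.5-fold lower. These were Ptch1 of the theca list, Kit of the oocyte list and, lower, Tyrobp of the leukocyte list. Kit had 2 measured probe sets, at 1.23 and 0.40 on the log2 scale. Nerve and glia markers had 1 of 4 in each direction. Uchl1 was higher, at 761 in the PR knockout and 478 in the wild type. Snap25 gave 6.82 in the PR knockout, under the floor, and 152.9 in the wild type, at least 4.03-fold lower. Of their 8 genes 4, Nefl, Nefm, Sox10 and Th, lay under the floor on both arrays, so nerve content was not read from this list.

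Genes that handle potassium beside the channels were read from lists of their own. Of 8 measured channel partner proteins, such as the scaffold gene Dlg1, 0 were 1.5-fold apart. Of 14 measured genes of the sodium-potassium pump and of potassium cotransport, 5 were at least 1.5-fold higher and 1 was at least 1.5-fold lower. Over all measured genes these shares were 6.54% and 4.75%. The pump subunit gene Atp1b2 gave 957 in the PR knockout and 570 in the wild type, with log2 differences of 0.66 and 0.75 in its 2 probe sets. Fxyd6, a pump regulator gene, gave 299.6 in the PR knockout and 160 in the wild type. The proton pump genes Atp12a, at 67.8 in the PR knockout and 34.1 in the wild type, and Atp4a, at 47.2 in the PR knockout and 78.9 in the wild type, differed in opposite directions near the floor.

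**Figure D4:**
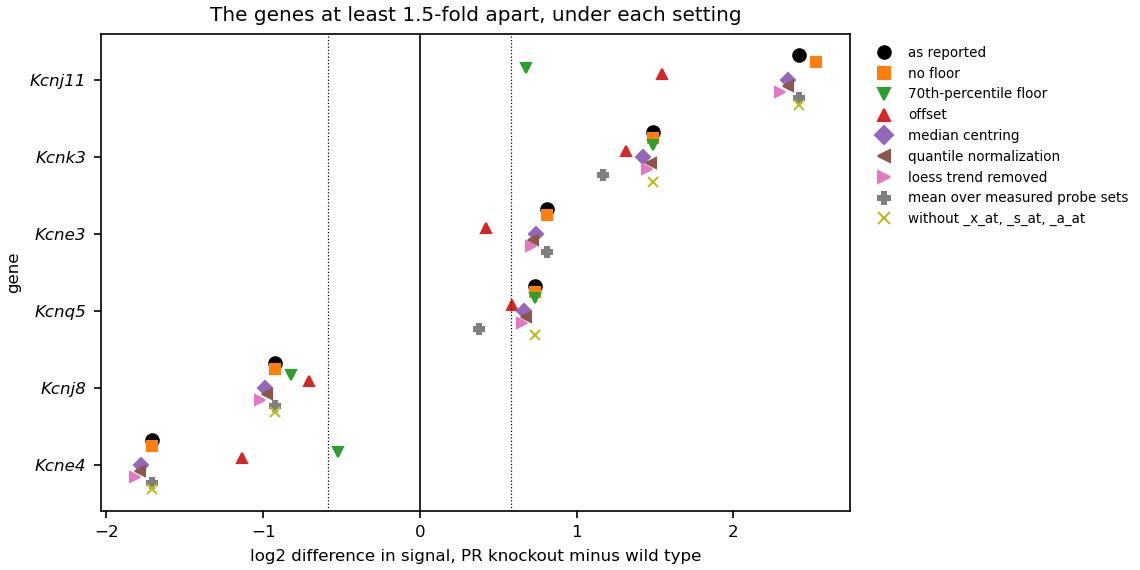
Log2 difference (PR knockout minus wild type, x axis) of the 6 members at least 1.5-fold apart, as reported and under the other settings of floor, offset, scaling and probe set; dotted lines mark 1.5-fold. No point crosses 0, and with the 70th-percentile floor Kcnj11, Kcnj8 and Kcne4 are bounds, at 0.68, -0.82 and -0.52.

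These 6 genes kept their direction under each of the 8 alternative settings in which they were measured. They were picked by the size of their difference on the same arrays. A higher floor or an offset only draws such differences toward 0, so the kept direction supports nothing further. Kcne3 was not measured with the higher floor or without its type of probe set (ending _a_at). With a floor at the 70th percentile, 127.6 on the PR knockout array and 120.9 on the wild-type array, Kcnj11 was at least 1.60-fold higher, and Kcne4, then under the floor in the PR knockout, had only a bound of -0.52 on the log2 scale and was no longer counted at 1.5-fold. With the mean over measured probe sets Kcnq5 came to 0.38 on the log2 scale, under 1.5-fold, and with the offset Kcne3 came to 0.42.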

How the data were processed

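RNA of ovaries from PR knockout and wild-type mice was hybridized to Affymetrix mouse genome arrays, 1 per genotype. The deposited intensity values are linear signals that the authors computed with MAS5 in Affymetrix Expression Console version 1, per the submitters' processing notes. Of 45101 signals, the lowest and highest 2% set aside, the mean was 150 on both arrays. Detection calls and probe-level data were not used here, no genome build is named with the values, and the number of arrays limits the precision.

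Signals were taken to log2 after flooring, and 64 control probe sets were left out. Gene names came from the platform annotation, and all 84 member gene IDs were found in RefSeq (GRCm38.p6). A gene was called at 1.5-fold or 2-fold, with no p-value. Members and lists were chosen with earlier results of these data known. Named were Pgr, members past 1.5-fold, up to 4 others per class by mean signal, members next to the floor, and list genes past 1.5-fold, up to 4 by size; Kcnh1, Kcnq1 and Kcns2 were added after their values were seen so that each measured member is described. Alternatives covered the floor, an offset of 50, scaling (median centring, quantile, loess with a fraction of 0.3) and the choice of probe set. Calculations used Python 3.11.15, pandas 2.3.3, numpy 2.4.6 and statsmodels 0.14.6.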

Additional observations from a re-analysis of the deposited data

How the results depend on the processing

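The number of measured members was 28 as reported and 11 where the floor was the 70th percentile. There 1 member was at least 1.5-fold lower, 1 at least 2-fold higher and 0 at least 2-fold lower. At least 2-fold lower were 2 members with no floor, Kcne4 and Kcng2 (-1.02 on the log2 scale), and 2 after removal of the loess trend, Kcne4 and Kcnj8 (-1.02). At least 1.5-fold lower were 3 members with no floor, with quantile normalization and after removal of the loess trend. Kcnh3 was among them after quantile normalization (-0.59) and removal of the loess trend (-0.60). With no floor 5 members were at least 1.5-fold higher, and Kcns2 was 3.07-fold higher. The median of the 3 inward rectifiers, 0.47 as reported, was -0.072 with the 70th-percentile floor, 0.22 with the offset and 0.20 with the mean over measured probe sets. The median of the auxiliary subunits, -0.01 as reported, was -0.34 with the 70th-percentile floor and 0.071 without probe sets designed against more than one transcript (names ending _x_at, _s_at or _a_at). The median of the two-pore-domain genes, 0.30 as reported, was 0.90 with the higher floor. These class medians with the higher floor are midpoints of the 2 genes of the class still measured, of which Kcnj11, Kcnj8 and Kcne4 are bounds. The higher floor leaves fewer genes and the removal of such probe sets fewer readings. The median over all measured members ran from 0.12 to 0.30. Background shares at 1.5-fold after rescaling were 4.57% to 5.00% higher and 5.42% to 5.94% lower, so more genes were lower than higher there. Most members lie within a few floors of background, where MAS5 signals are noisy, and no spread between animals was measured.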

Other observations

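Voltage-gated calcium channels, which potassium channels counteract in excitable cells, were mostly under the floor, with 6 of 16 genes measured. By the probe sets used, 2 of these were at least 1.5-fold higher in the PR knockout and 0 were at least 1.5-fold lower, against 6.54% and 4.75% of all measured genes. Cacna2d1 gave 472 in the PR knockout and 536 in the wild type, and its 4 measured probe sets ran from -0.78 to 0.04 on the log2 scale. Cacna1h, the pore of a low-threshold T-type channel, gave 229.2 in the PR knockout and 113 in the wild type, 2.03-fold higher, with 1 measured probe set. Cacna1d, an L-type pore gene, gave 57.8 in the PR knockout and 30.5 in the wild type, which lay under the floor, and a further probe set above the floor stood at 0.14 on the log2 scale. Among HCN and CNG cation channels 1 of 7 genes was measured: Cnga1, a cyclic-nucleotide-gated channel gene, gave 8.82 in the PR knockout, under the floor, and 79.6 in the wild type, at least 2.10-fold lower.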
